A study of Mus musculus with 9 samples.

Results

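Prostaglandin synthesis and signalling was followed through 8 genes in RNA of mouse pancreatic islets: Pla2g4a, Ptgs1, Ptgs2, Ptges, Ptges2, Ptger3, Ptger4 and Hpgd. They were taken by symbol from the table of counts, where all 8 were found among 56748 genes, and 7 of the 8 were among the 17276 genes with enough counts to be tested. Islets were primary tissue of wild-type C57bl/6 mice, in 3 groups of 3 libraries. Control islets received no treatment. Inflamed islets were cultured for 48 hours with 3 inflammatory cytokines, interleukin-1 beta, interleukin-6 and tumor necrosis factor alpha. Particle islets received the same cytokines and PD-G-MSNPs, which are mesoporous silica nanoparticles coated with polydopamine and made to deliver nutrients. The study asked whether the particles protect islets from the cytokines. Particles without cytokines were not analysed here, and the sources used here do not say whether replicates came from separate mice, so p-values measure the spread between these libraries, which may be partly technical.

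Prostaglandins are lipid signals made from arachidonic acid. A phospholipase A2 frees the fatty acid from membranes, a cyclooxygenase (encoded by Ptgs1 or Ptgs2) turns it into prostaglandin H2, and terminal synthases such as those encoded by Ptges and Ptges2 form prostaglandin E2. Prostaglandin E2 acts on G protein-coupled receptors named EP1 to EP4 and is inactivated inside cells by the dehydrogenase encoded by Hpgd. In islets, interleukin-1 beta is a known inducer of Ptgs2, and EP3, which lowers cyclic AMP through inhibitory G proteins, is known for restraining insulin secretion.

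Total counts per library ranged from 17832949 to 55865759, and 3 counts in a library corresponded to 0.0557 to 0.148 CPM (read counts relative to library size, with totals scaled by TMM factors). Insulin transcripts took 28.5 to 29.2% of counts in control, 13.0 to 21.2% in inflamed and 8.55 to 21.6% in particle libraries, so the islet label was borne out in each of the 9 libraries. RNA came from whole islets, so more cells of a type and more RNA per cell cannot be told apart. Macrophage markers moved with the groups: of 15 listed genes 14 were tested, and 12 rose and 1 fell in inflamed against control islets. Of all genes tested 20.7% were called higher and 19% lower in that comparison. The summed level of the macrophage markers was 341.7 to 436.3 CPM in control, 1141 to 1233 in inflamed and 371.5 to 559.7 in particle libraries. Of the markers that rose, Cd68, Fcer1g and C1qb had the smallest adjusted p among those averaging 1 CPM or more. Mrc1 and Cx3cr1, named from the same list outside that rule, averaged 0.031 and 0.122 CPM in inflamed islets, Cx3cr1 being the marker that fell. Both values lie below or within the range of 3 counts in a library, so they rest on few reads. The part of these cells in the results that follow was not tested. Among particle libraries, replicate 3 lay apart in several of the 8 genes, and results that rest on it are given with and without it. It was singled out by these values alone. Chi-square per degree of freedom between particle libraries was 186 for replicates 1 and 2, 94.4 for 1 and 3 and 149 for 2 and 3.

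Transcripts of cytosolic phospholipase A2 alpha, of the inducible cyclooxygenase and, less firmly, of both prostaglandin E synthases were higher in inflamed than in control islets. Other, more abundant phospholipase genes moved in both directions in the same libraries: Pla2g6 and Pla2g2f fell, and Plaat3, a phospholipase A and acyltransferase, rose. By the quasi-likelihood test of edgeR, adjusted by the Benjamini-Hochberg method over all genes tested, Pla2g4a, Ptgs2, Ptges and Ptges2 rose in inflamed against control islets, and 0 of the 8 genes fell. Ptgs1, Ptger4 and Hpgd were tested and not called, and Ptger3 did not pass the count filter. Of all genes tested, 20.7% were called higher and 19% lower in that comparison, 39.6% in either direction. Inflamed libraries lay above every control library for 5 of the 8 genes, against 28.3% of all genes tested, and below every control library for 1, Hpgd, against 28.5%. The number of higher genes was 4 with all libraries and 2 when control replicate 1 or 3 or inflamed replicate 3 was left out, and Pla2g4a and Ptgs2 were called in each of the 18 alternatives run.

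**Figure D1:**
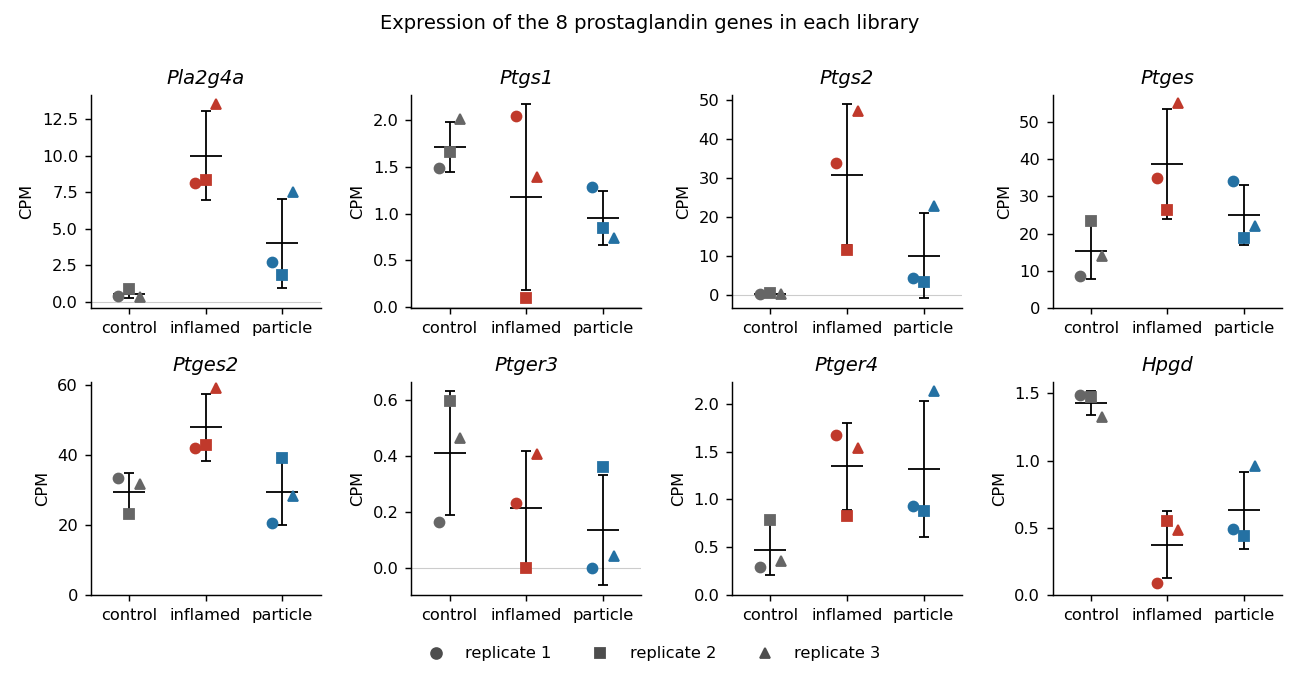
Expression of the 8 genes in CPM (vertical axes, linear, a separate scale for each gene) in 3 control, 3 inflamed and 3 particle libraries. Symbols are libraries by replicate number, long horizontal marks are means and bars are SD. Ptgs2 and Pla2g4a lie near 0 in control libraries and are highest in replicate 3 of both treated groups, while Hpgd is highest in control libraries.

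Pla2g4a encodes cytosolic phospholipase A2 alpha, which releases arachidonic acid from membrane phospholipids (ENSMUSG00000056220, GRCm39 chromosome 1 from 149705369 to 149837041, minus strand). It was expressed at 0.413, 0.920 and 0.359 CPM in control replicates 1 to 3. In inflamed replicates 1 to 3 it reached 8.14, 8.34 and 13.5 CPM, and in particle replicates 1 to 3 it stood at 2.71, 1.85 and 7.497 CPM. Every inflamed library lay above every control and every particle library, and every particle library lay above the controls. The log2 fold change of inflamed against control was 4.16 (SE 0.61, adjusted p = 6.15e-04), or 17.8-fold.

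Pla2g4a and Ptgs2 are neighbours on chromosome 1 and are transcribed away from each other. In the deposited gene coordinates 138740 bases separate the end of Pla2g4a at 149837041 from the start of Ptgs2 at 149975782. The 3 genes listed between them include 0 protein-coding genes, and none of the 3 had more than 3 counts in a library. Over the 9 libraries the log2 CPM of Pla2g4a and Ptgs2 had a Pearson correlation of 0.98, given as a description, since the libraries fall into treatment groups. Other genes had higher values with Pla2g4a, among them Ccl2 (0.992), Plek (0.991) and Mcl1 (0.988), so the correlation is not particular to the neighbouring pair.

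Ptgs2 encodes cyclooxygenase 2, the inducible isoenzyme (ENSMUSG00000032487, chromosome 1 from 149975782 to 149983978, plus strand). Control replicates 1 to 3 held 3, 12 and 8 counts of it, which is 0.124, 0.552 and 0.287 CPM. Inflamed replicates 1 to 3 held 730, 249 and 2543 counts, which is 33.9, 11.4 and 47.2 CPM. Inflamed replicate 2, the lowest of its group, was still above every control library, and the groups did not overlap. The log2 fold change was 6.59 (SE 0.99, adjusted p = 9.21e-04), or 96.6-fold, and among the 8 genes this was the largest difference between inflamed and control islets. Particle replicates 1 and 2 stood at 4.23 and 3.26 CPM and particle replicate 3 at 22.7 CPM, so 1 of the 3 particle libraries lay within the inflamed range.

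Ptgs1 encodes cyclooxygenase 1, the constitutive isoenzyme (ENSMUSG00000047250, chromosome 2 from 36120438 to 36142284, plus strand). It was at 1.49, 1.66 and 2.01 CPM in control replicates 1 to 3 and at 2.05, 0.0917 and 1.39 CPM in inflamed replicates 1 to 3. Inflamed replicate 2 held 2 counts of Ptgs1 and lay far below the other libraries, while inflamed replicates 1 and 3 lay just above and just below the control range, so the groups overlapped. The log2 fold change of inflamed against control was -0.54 with a 95% interval from -2.28 to 1.20 (adjusted p = 0.614), which leaves room for a change of either sign. Particle libraries stood at 1.28, 0.844 and 0.741 CPM.

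Promoter windows of the induced and the constitutive cyclooxygenase, of the phospholipase and of the inducible prostaglandin E synthase are shown. Of these 4 genes, 3 rose in inflamed against control islets and Ptgs1 was not called. Each window spans 250 bases before to 50 after a start site in RefSeq (GRCm38.p6, an earlier build than that of the count table), and all 8 genes had at least 1 window there. Capitals mark matches, on either strand, to 6 short motifs. Those bound by inflammatory factors are the kappa B type, which is GGG, then 5 bases of any kind and a pair of C, the C/EBP type TTNNNCAA and the STAT type TTCNNNGAA. The others are TGACG, part of the cyclic AMP response element (CRE type), the E box CACGTG and the promoter element TATAAA. Pla2g4a had 2 windows, and the one farther upstream in the gene is given.
Ptgs2: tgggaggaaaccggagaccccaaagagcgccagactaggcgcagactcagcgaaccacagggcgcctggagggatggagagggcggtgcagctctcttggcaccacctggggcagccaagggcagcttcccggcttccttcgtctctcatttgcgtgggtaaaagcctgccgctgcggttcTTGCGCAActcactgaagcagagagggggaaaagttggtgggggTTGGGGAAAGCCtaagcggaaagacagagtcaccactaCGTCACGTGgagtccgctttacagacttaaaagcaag
Ptgs1: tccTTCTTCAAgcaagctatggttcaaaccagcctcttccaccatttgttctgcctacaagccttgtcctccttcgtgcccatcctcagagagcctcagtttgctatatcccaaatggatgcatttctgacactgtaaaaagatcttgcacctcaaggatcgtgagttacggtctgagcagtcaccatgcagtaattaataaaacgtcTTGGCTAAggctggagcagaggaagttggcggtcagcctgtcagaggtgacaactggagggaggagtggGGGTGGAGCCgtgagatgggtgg
Pla2g4a: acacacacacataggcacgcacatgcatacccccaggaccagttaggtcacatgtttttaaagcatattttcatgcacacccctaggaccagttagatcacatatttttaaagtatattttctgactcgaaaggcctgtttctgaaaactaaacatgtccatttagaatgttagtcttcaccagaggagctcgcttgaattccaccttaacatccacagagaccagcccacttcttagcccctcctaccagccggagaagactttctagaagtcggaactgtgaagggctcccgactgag
Ptges: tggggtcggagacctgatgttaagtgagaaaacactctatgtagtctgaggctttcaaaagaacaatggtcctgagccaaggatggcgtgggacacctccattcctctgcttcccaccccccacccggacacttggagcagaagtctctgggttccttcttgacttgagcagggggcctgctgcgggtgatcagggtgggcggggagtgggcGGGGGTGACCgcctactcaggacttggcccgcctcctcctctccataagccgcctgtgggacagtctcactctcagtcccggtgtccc
The windows lie at chr1:150099781-150100080 on the plus strand for Ptgs2, at chr2:36230176-36230475 on the plus strand for Ptgs1, at chr1:149961241-149961540 on the minus strand for Pla2g4a and at chr2:30903248-30903547 on the minus strand for Ptges.

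In the Ptgs2 window the CRE type match (bases 264 to 268 of the window) overlapped the E box (bases 267 to 272), and a C/EBP type match (bases 226 to 233) overlapped a kappa B type match (bases 228 to 237). A further C/EBP type match stood at bases 182 to 189. Of 32851 RefSeq windows, 50.8% held the kappa B type motif, 20.8% the CRE type, 7.15% the E box, 36.7% the C/EBP type, 8.3% the STAT type and 13.6% TATAAA. The Ptgs1 window held a kappa B type match and 2 C/EBP type matches, the Ptges window a kappa B type match, and the Pla2g4a window shown held none of these letters. Matches this common are a description of the sequence and not of binding.

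Ptges encodes the inducible microsomal prostaglandin E synthase (ENSMUSG00000050737, chromosome 2 from 30779483 to 30819875, minus strand). Control replicates 1 to 3 were at 8.67, 23.5 and 14.03 CPM and inflamed replicates 1 to 3 at 34.8, 26.2 and 55.0 CPM. The groups did not overlap, although control replicate 2 came within 3 CPM of inflamed replicate 2. The log2 fold change was 1.33 (SE 0.39, adjusted p = 0.0189), or 2.52-fold. This call was lost without control replicate 1 (log2 fold change 1.0, adjusted p = 0.0781), control replicate 3 (1.22, adjusted p = 0.0822) or inflamed replicate 3 (0.94, adjusted p = 0.0922).

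Ptges2 encodes a second, membrane-associated prostaglandin E synthase that is expressed widely (ENSMUSG00000026820, chromosome 2 from 32285908 to 32295784, plus strand). It was at 33.2, 23.2 and 31.5 CPM in control replicates 1 to 3 and at 42.0, 42.7 and 58.9 CPM in inflamed replicates 1 to 3, with no overlap between the groups. The log2 fold change was 0.71 (SE 0.26, adjusted p = 0.0494), or 1.63-fold. This call stood close to the threshold and was kept in 5 of 18 alternatives. It was lost with DESeq2 (adjusted p = 0.0597) and when any library of either group, or particle replicate 3, was left out (adjusted p from 0.0585 to 0.188).

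Both receptors of the set were transcribed at low levels. Ptger4 encodes EP4, a receptor that raises cyclic AMP through stimulatory G proteins (ENSMUSG00000039942, chromosome 15 from 5236142 to 5273668, minus strand). It was at 0.289, 0.782 and 0.359 CPM in control replicates 1 to 3, at 1.67, 0.825 and 1.54 CPM in inflamed replicates and at 0.935, 0.884 and 2.14 CPM in particle replicates. Each inflamed and each particle library lay above each control library, with control replicate 2 and inflamed replicate 2 almost level. The log2 fold change of inflamed against control was 1.50 with a 95% interval from 0.02 to 2.98 and was not called (adjusted p = 0.0979), nor was it in any of the 18 alternatives. The gene overlaps Ttc33 on the opposite strand, which had up to 971 counts in a library against at most 83 for Ptger4, and the sources used here do not say whether counting used strand, so the share of Ptger4 in its counts is uncertain.

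Ptger3 encodes EP3 (ENSMUSG00000040016, chromosome 3 from 157272529 to 157351525, plus strand). It had 4, 13 and 13 counts in control replicates 1 to 3, 5, 0 and 22 in inflamed replicates and 0, 9 and 1 in particle replicates. These correspond to at most 0.598 CPM, and the 3 groups overlapped. Without a count filter the log2 fold change of inflamed against control was -0.93 (SE 1.43, adjusted p = 0.691), so a change was not detectable at this depth. The count of 0 in inflamed replicate 2 and in particle replicate 1 allows up to 0.138 and 0.148 CPM, by counting error alone.

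Hpgd encodes 15-hydroxyprostaglandin dehydrogenase, the first enzyme of prostaglandin breakdown (ENSMUSG00000031613, chromosome 8 from 56747620 to 56774078, plus strand). It was at 1.49, 1.47 and 1.33 CPM in control replicates 1 to 3 and at 0.0930, 0.550 and 0.483 CPM in inflamed replicates 1 to 3. Particle replicates stood at 0.492, 0.442 and 0.959 CPM. Control libraries lay above all 6 treated libraries and close together. With edgeR the log2 fold change of inflamed against control was -1.90 (SE 0.75) and was not called (adjusted p = 0.0634), while DESeq2 called it lower (log2 fold change -1.95, adjusted p = 0.0244), as did limma on log2(FPKM + 1) (adjusted p = 0.00432) and on log2(FPKM + 0.1) (adjusted p = 0.0122). Inflamed replicate 1 held 2 counts, so its level rests on few reads.

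To see what the particles changed under cytokines, the same genes were compared between particle and inflamed islets. In edgeR's quasi-likelihood test 0 of the 8 genes were called, as were 0 of all genes tested, which is 0% in either direction. An unadjusted p under 0.05 was reached by 2 of them, Pla2g4a and Ptges2, against 15.1% of all genes tested, and DESeq2 called 0 of the 8 and 816 genes in all. These 2 were also the genes whose particle libraries lay below every inflamed library, a pattern found for 6.82% of all genes tested, and 0 of the 8 lay above, against 8.87%. This comparison shares its 3 inflamed libraries with that of inflamed against control. Macrophage markers moved with it: 0 of the 14 tested were called, 13 had an unadjusted p under 0.05 and 11 lay lower in every particle library than in every inflamed one. Their part in the values that follow was not tested.

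Pla2g4a had a log2 fold change of -1.32 between particle and inflamed islets (SE 0.53, adjusted p = 0.278). For Ptges2, at 20.6, 39.0 and 28.3 CPM in particle replicates 1 to 3, it was -0.71 (SE 0.26, adjusted p = 0.235), and its particle mean of 29.3 ± 9.27 CPM (SD, n = 3) stood beside 29.3 ± 5.36 CPM in controls. Ptgs2 had a value of -1.62 (SE 0.75, 95% interval from -3.28 to 0.05, adjusted p = 0.348). Ptges, at 34.3, 18.9 and 21.9 CPM in particle replicates 1 to 3, had -0.63 (SE 0.38, adjusted p = 0.475). The remaining 3 tested genes had adjusted p-values of 0.896 for Ptgs1, 0.991 for Ptger4 and 0.700 for Hpgd, with intervals that reach beyond 1 on the log2 scale in at least 1 direction. Without particle replicate 3, Ptgs2 was called lower in particle than in inflamed islets (log2 fold change -3.04, adjusted p = 0.0281), as was Pla2g4a (-2.13, adjusted p = 0.0407). In that setting 942 genes were called in all, so the change was not limited to these genes. Replicate 3 was singled out by its high values in these same genes, so these calls show dependence on 1 library and are not a separate test. Without particle replicate 1 or 2 neither gene was called (edgeR adjusted p from 0.561 to 0.651). The summed macrophage markers of particle replicate 3 were 559.7 CPM, against 430.6 and 371.5 CPM in particle replicates 1 and 2.

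**Figure D2:**
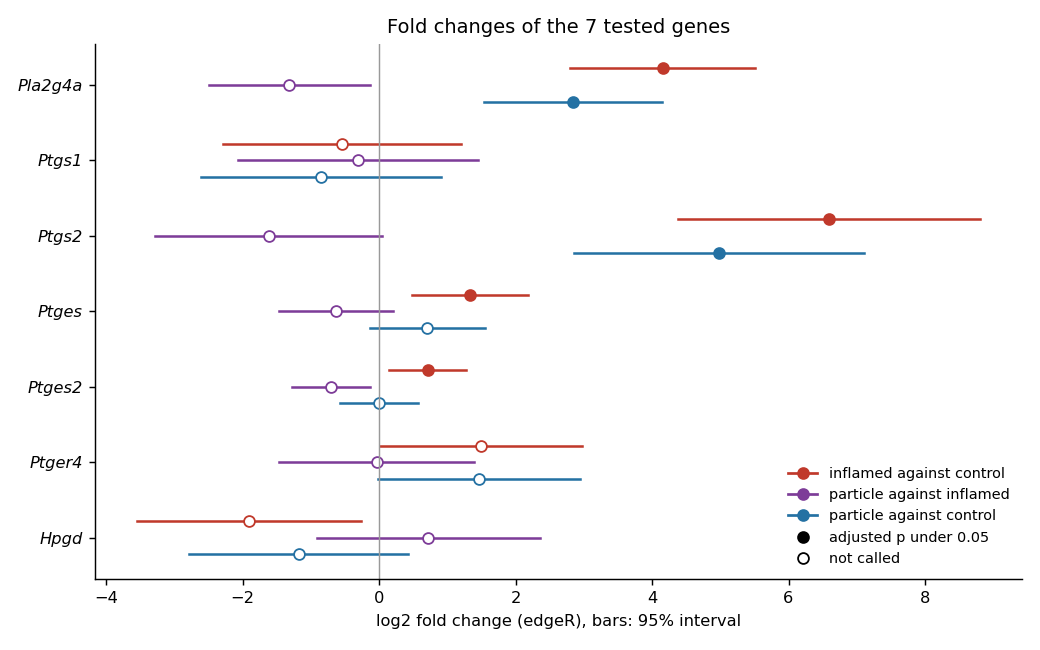
Log2 fold changes (horizontal axis) of the 7 tested genes in the 3 comparisons, with 95% intervals as bars. Filled points have an adjusted p under 0.05. Filled points are those of Pla2g4a and Ptgs2 for both treated groups against control, and those of Ptges and Ptges2 for inflamed against control, while the particle against inflamed points are open throughout.

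Against control islets, which are the same 3 libraries as before, Ptgs2 and Pla2g4a rose in particle islets as well. Of all genes tested 11.4% were called higher and 5.92% lower in this comparison, 17.3% in either direction. Ptgs2 was 31.5-fold higher (4.98 on the log2 scale, SE 0.95, adjusted p = 0.0079), and Pla2g4a 7.16-fold (2.84, SE 0.59, adjusted p = 0.00978). Without particle replicate 3 these were 3.55 (adjusted p = 0.0101) and 2.02 (adjusted p = 0.0327), and without control replicate 3 neither was called (adjusted p = 0.057 and 0.0532). Ptges was not called (log2 fold change 0.70, SE 0.38, adjusted p = 0.228), nor was Ptges2, with a fold of 0.998 and a 95% interval from -0.57 to 0.57 on the log2 scale. Ptger4 had 1.47 (adjusted p = 0.154), Hpgd -1.17 (adjusted p = 0.288) and Ptgs1 -0.85 (adjusted p = 0.495). Particle libraries of Hpgd and Ptgs1 all lay below the controls, a pattern of 20.6% of all genes tested, and those of Ptgs2, Pla2g4a and Ptger4 lay above them, against 22.9%.

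Levels of different genes were compared per length, as FPKM, the fragment count scaled by gene length and library in the deposited table. In control islets Ptges2 and Ptges led, at means of 5.85 and 3.97 FPKM, and their ranges overlapped. Hpgd followed at 0.857 FPKM and Ptgs1 at 0.447 FPKM, each without overlap with its neighbours in the order. Pla2g4a, Ptger3, Ptger4 and Ptgs2 came last, between 0.0713 and 0.0895 FPKM, and did not separate from each other. In inflamed islets Ptges, Ptges2 and Ptgs2 led at 9.61, 9.24 and 6.57 FPKM with overlapping ranges, and Pla2g4a came next at 1.53 FPKM, apart from the genes above and below it. Ptgs1, Hpgd and Ptger4 lay between 0.197 and 0.294 FPKM with overlapping ranges, and Ptger3 was lowest at 0.0366 FPKM. Particle islets had Ptges, Ptges2, Ptgs2 and Pla2g4a at the top in that order, at 6.16, 5.58, 2.11 and 0.605 FPKM, with overlap between each pair of neighbours.

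The balance of the cyclooxygenases was therefore expressed as the share of Ptgs2 in the summed FPKM of Ptgs1 and Ptgs2. It was 6.60, 22.04 and 10.8% in control replicates 1 to 3, 93.4, 99.1 and 96.6% in inflamed replicates and 73.7, 76.6 and 96.3% in particle replicates. The means were 13.1 ± 7.98% in control, 96.4 ± 2.86% in inflamed and 82.2 ± 12.3% in particle islets (SD, n = 3). Control libraries lay below all treated libraries, with an exact two-sided permutation p of 0.1 for either treated group against control, the smallest that 3 against 3 libraries allow. Particle replicates 1 and 2 lay below the inflamed range and particle replicate 3 within it, with an exact permutation p of 0.2 between the treated groups.

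The same share for the prostaglandin E synthases showed no separation. Ptges made up 25.1, 56.5 and 36.4% of the summed FPKM of Ptges and Ptges2 in control replicates 1 to 3, 51.6, 44.1 and 54.6% in inflamed replicates and 68.2, 38.3 and 49.97% in particle replicates. The exact two-sided permutation p was 0.4 for inflamed against control, 0.9 for particle against inflamed and 0.4 for particle against control.

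**Figure D3:**
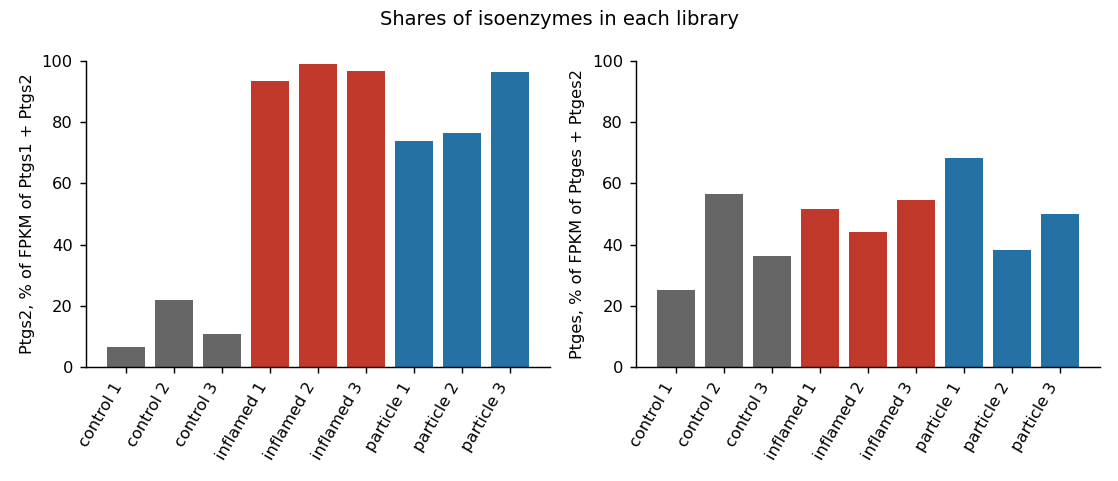
Share of Ptgs2 in the summed FPKM of both cyclooxygenases (left) and of Ptges in the summed FPKM of Ptges and Ptges2 (right), in percent, with 1 bar for each library. The share of Ptgs2 is at most 22.04% in control libraries and at least 73.7% in treated libraries, while the bars for Ptges overlap between groups.

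Other genes of prostanoid metabolism and reception were examined from a list of 42 symbols, of which 41 were found and 31 tested. Of these 31, 10 rose and 3 fell in inflamed against control islets, with a median log2 fold change of 0.61 against 0.05 over all genes tested. The 13 calls stand beside 39.6% called among all genes tested, so the number called in either direction was near that background. By direction, the 10 that rose and the 3 that fell stand beside 20.7% called higher and 19% called lower. Named first are called genes that averaged 1 CPM or more, by smallest adjusted p. Hpgds, the hematopoietic prostaglandin D synthase, rose from 12.7 ± 1.27 to 84.2 ± 4.02 CPM (adjusted p = 2.89e-05), a log2 fold change of 2.73. Particle libraries held it at 74.7 ± 25.5 CPM. Ptgir, the prostacyclin receptor, rose from 0.344 ± 0.0645 to 4.82 ± 1.03 CPM (log2 fold change 3.80, adjusted p = 2.11e-04) and stood at 1.10 ± 0.182 CPM in particle islets, with its particle libraries below every inflamed and above every control library (adjusted p = 0.121 for particle against inflamed). Tbxas1, the thromboxane synthase, rose from 1.45 ± 0.525 to 6.29 ± 2.38 CPM and stood at 2.32 ± 0.387 CPM in particle islets. It overlaps Hipk2 on the opposite strand, so its share of its counts is uncertain.

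Enzymes that release or store fatty acids moved in both directions. Plaat3, a phospholipase A and acyltransferase, rose from 23.1 ± 4.96 to 167 ± 21.7 CPM, and Acsl4, which activates arachidonic acid for storage in lipids, from 18.2 ± 2.35 to 47.0 ± 2.29 CPM. Pla2g6, the calcium-independent phospholipase A2 beta, fell from 114 ± 10.1 to 25.4 ± 2.37 CPM (log2 fold change -2.17, adjusted p = 8.84e-04), and Pla2g2f, a secreted phospholipase A2, from 368 ± 111 to 104 ± 36.8 CPM (log2 fold change -1.82, adjusted p = 0.00364). In particle islets Pla2g6 was at 49.6 ± 27.7 and Pla2g2f at 160 ± 71.95 CPM. Pla2g2a, a secreted phospholipase gene known to be disrupted in C57BL/6 mice, had 0 counts in all 9 libraries.

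Ptges3, a cochaperone that also has prostaglandin E synthase activity, rose from 87.05 ± 23.8 to 170.4 ± 18.4 CPM, a call lost without control replicate 2 (adjusted p = 0.0584). Ptgr2, a reductase that acts on prostaglandin metabolites, rose from 12.8 ± 0.552 to 30.7 ± 2.79 CPM. Anxa1, annexin A1, a protein that restrains phospholipase A2, rose from 1.78 ± 1.09 to 6.07 ± 2.98 CPM and stood at 1.62 ± 0.851 CPM in particle islets. Its call did not hold without control replicate 1 or 3 or without inflamed replicate 1 or 3 (adjusted p from 0.0783 to 0.134). The other 3 called genes, chosen for naming after their values were seen, were Ptger2, which encodes EP2 (0.132 ± 0.0442 to 1.22 ± 0.714 CPM), Ptgr1 (2.19 ± 0.633 to 7.33 ± 6.095 CPM) and Cbr1, a carbonyl reductase, which fell from 71.5 ± 14.3 to 39.3 ± 15.7 CPM. All 3 were lost without at least 1 library: Ptger2 without control replicate 2 (adjusted p = 0.0512), Ptgr1 without control replicate 1, 2 or 3, inflamed replicate 3 or particle replicate 3 (up to 0.322), and Cbr1 without control replicate 1 or 3, inflamed replicate 1 or 2 or particle replicate 1 (up to 0.121).

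In particle against inflamed islets 0 of the 31 genes were called by edgeR, as were 0 of all genes tested. An unadjusted p under 0.05 was reached by 4, against 15.1% of all genes tested. DESeq2 called 3 lower, and 816 genes in all. Against control, 6 of the 31 rose in particle islets and 2 fell, beside 11.4% called higher and 5.92% called lower among all genes tested. Those that rose were Plaat3, Hpgds, Ptgir, Ptges3, Acsl4 and Ptgr2, and those that fell were Pla2g6 and Pla2g2f, with the 3 control libraries shared by both comparisons. The number that rose was 3 without control replicate 2, control replicate 3 or particle replicate 3. The number that fell was 0 or 1 without any 1 control library, inflamed replicate 1 or 2, or particle replicate 1 or 3.

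**Figure D4:**
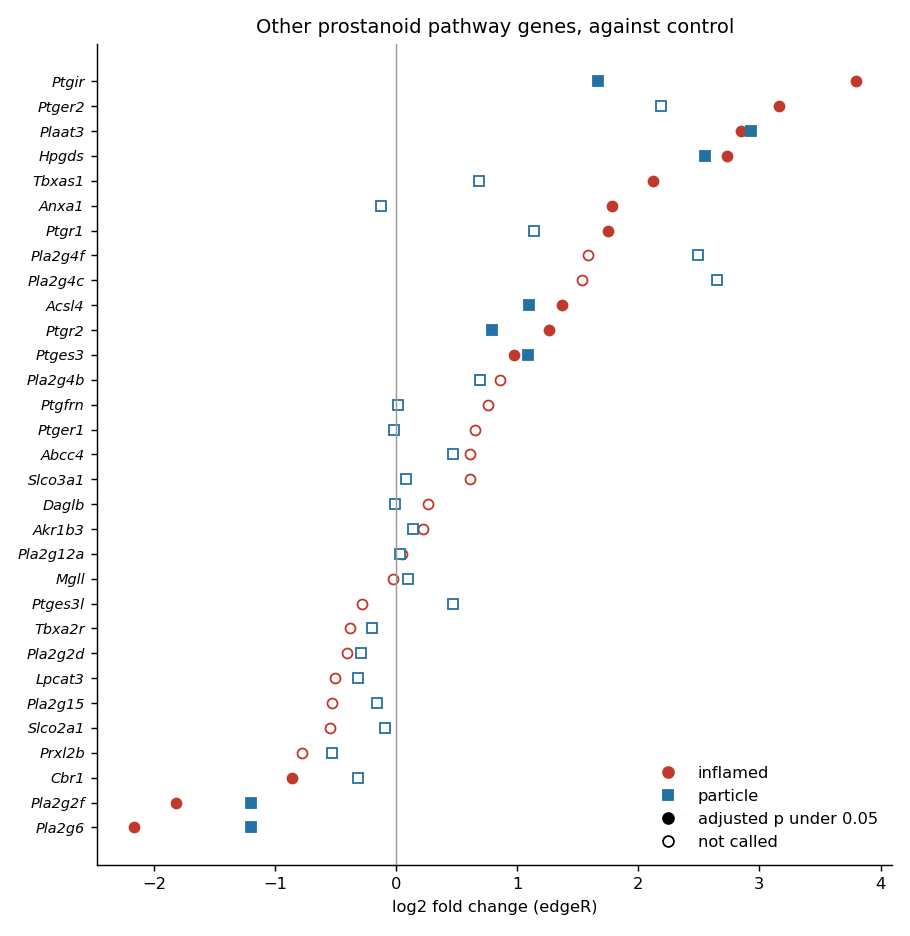
Log2 fold changes (horizontal axis) of the 31 other prostanoid pathway genes tested, in inflamed (circles) and particle (squares) islets against the same control libraries. Filled symbols have an adjusted p under 0.05. Filled circles comprise 10 genes to the right of 0 and 3 to the left, and filled squares 6 and 2.

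Genes downstream of EP3 and EP4 were taken from a list of 21 G protein, adenylyl cyclase, phosphodiesterase and cyclic AMP effector genes, all tested. In inflamed against control islets 8 fell and 1 rose, with a median log2 fold change of -0.92 against 0.05 over all genes tested. The number called in either direction was near the 39.6% of all genes tested, of which 19% fell and 20.7% rose. Those that fell included the G protein alpha subunits Gnai1 (11.4 to 3.33 CPM in the mean), Gnaz (73.5 to 23.2 CPM), Gnao1 (714.5 to 313 CPM) and Gnas (201 to 89.0 CPM). Adcy6, an adenylyl cyclase, fell from 151.7 to 35.3 CPM, Pde3b, a phosphodiesterase, from 60.5 to 31.9 CPM, Prkaca, the catalytic subunit of protein kinase A, from 194 to 84.2 CPM, and Rapgef4, the cyclic AMP sensor EPAC2, from 51.1 to 12.1 CPM (log2 fold change -2.08, adjusted p = 4.98e-04). Crem, a cyclic AMP-responsive transcription factor, rose from 18.5 to 55.5 CPM (log2 fold change 1.59, adjusted p = 7.61e-04) and was at 78.9 CPM in particle islets. Each of these 9 calls held in the 18 alternatives. In the same libraries 10 of 11 beta cell markers fell, and the part of beta cell RNA in these values was not tested.

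For 5 of the 8 genes, Ptgs2, Pla2g4a, Ptges, Ptger4 and Hpgd, the most similar genes were found by Pearson correlation of log2 CPM over the 9 libraries, among about 10395 protein-coding genes averaging 5 CPM or more. For Ptgs2 these were Orm1 (0.990), Cxcl2 (0.988) and Ccl7 (0.987), and for Pla2g4a they were Ccl2 (0.992), Plek (0.991) and Mcl1 (0.988). Orm1 encodes an acute phase protein, Cxcl2, Ccl7 and Ccl2 are chemokines, Plek is a protein of blood cells and Mcl1 a survival protein of the BCL2 family. Ptges was nearest to Fos (0.960), Bfar (0.951) and Lrrk1 (0.929), Ptger4 to Ptpn12 (0.961), Rnf103 (0.959) and Ercc5 (0.956), and Hpgd to Cyb5d2 (0.953), Trim65 (0.950) and Phyhipl (0.936). Within the set, Ptgs2 had correlations of 0.91 with Ptger4, 0.82 with Ptges, 0.49 with Ptges2, -0.29 with Ptgs1 and -0.73 with Hpgd. The libraries fall into 3 treatment groups, so these values describe shared group differences as well as shared variation.

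Some markers of other islet cells moved in the same libraries. Of 9 tested endothelial markers 5 fell and 0 rose in inflamed against control islets, with a summed level of 28.6 to 72.2 CPM in control, 6.32 to 9.81 in inflamed and 6.79 to 30.6 in particle libraries. Of 10 stellate and fibroblast markers 2 fell and 0 rose, of 7 duct markers 2 rose and 1 fell, and of 8 alpha and delta cell markers 5 fell. Of all genes tested 20.7% were called higher and 19% lower in that comparison. The numbers of stellate markers that fell and of duct markers called were near that background. Acinar markers, 9 of which were tested with 0 called, ranged from 22.5 to 1441 CPM in control, 27.99 to 2666 in inflamed and 5.96 to 3320 in particle libraries. Of 10 markers of neutrophils, lymphocytes and mast cells 3 were tested and 1 rose, S100a9, from 0.0307 to 5.42 CPM. Ly6g, a neutrophil marker of the same list, had 0 counts in control libraries, 37 counts over the inflamed group and 20 over the particle group. Cd3e, Ms4a1, Nkg7 and Mcpt4, which mark T cells, B cells, cytotoxic lymphocytes and mast cells, had 0 counts in all 9 libraries. The part of these cell types in the levels of the prostaglandin genes was not tested.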

How the data were processed

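Total RNA of mouse islets was sequenced by the authors in 9 libraries, 3 in each of 3 groups taken from sample titles. Columns of untreated islets carry no group word and were matched as the set left once the inflamed and particle columns were matched. The deposited counts are whole-number read counts per gene, and the submitters' processing notes name HTSeq, DESeq2 and the genome build GRCm39, without versions. Each deposited FPKM value is the count divided by the length of the gene and a constant of that library, which was 0.86 to 1.19 times the library total. Chi-square per degree of freedom between replicates was 39.4 to 186, so no library was counted as a repeat of another.

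For testing, edgeR 4.0.16 (R 4.3.3) was run on all 9 libraries together: filterByExpr (smallest count of 10), TMM scaling and robust quasi-likelihood fits, with Benjamini-Hochberg adjustment over 17276 genes and calls at an adjusted p under 0.05. Standard errors are the log2 fold change divided by the square root of the F statistic. Intervals use 95% confidence, and floors of 3 counts cover counting error only. Alternatives were RLE factors, library totals, no filter, at least 1 CPM in 3 libraries, DESeq2 1.42.0, fits of only the libraries compared, a replicate block, limma 3.58.1 on log2(FPKM + 1) or log2(FPKM + 0.1), and each library left out in turn. The 8 genes and the lists were chosen with earlier results of these data known. Named list genes are called genes that averaged 1 CPM or more, at most 10 per list by adjusted p, besides those marked as chosen otherwise, and the 3 genes most like each of 5 members (Ptgs2, Ptges, Ptger4, Pla2g4a and Hpgd; the rule also covered Ptger3, which was not tested, but neither Ptgs1 nor Ptges2). Of 9 columns in each table, 0 were without a sample. On simulated counts (16704 genes) with changes planted for inflamed against control, 72% of genes changed 4-fold and 10% of those changed 2-fold were recovered, 0 in the wrong direction.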

Additional observations from a re-analysis of the deposited data

How the results depend on the processing

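Pla2g4a and Ptgs2 kept direction and call for inflamed against control in all 18 alternatives, and Ptger4 and Ptgs1 were not called in any of them. The number of the 8 genes called lower in inflamed against control islets became 1 (Hpgd) with DESeq2 and with limma on either FPKM scale, and that for particle against control became 1 with limma on log2(FPKM + 1). The number called higher in particle against control islets was 1 without a count filter and 0 with limma on log2(FPKM + 1). Of the other prostanoid pathway genes, 5 were lower in inflamed against control islets with DESeq2 and in the fit of only the libraries compared. In particle against inflamed islets 3 were lower with DESeq2 and 1 with limma on log2(FPKM + 1). In particle against control islets 1 was lower with library totals, 0 in the fit of only the libraries compared and 1 with the replicate block. All genes called in particle against inflamed islets numbered 1 with library totals, 221 without a count filter, 816 with DESeq2, and 16 and 14 with limma on log2(FPKM + 1) and log2(FPKM + 0.1). The causes were not tested.

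Leaving out 1 library at a time gave 2 to 4 of the 8 genes higher in inflamed against control islets, 0 to 2 lower in particle against inflamed islets and 0 to 2 higher in particle against control islets. For the pathway genes it gave 0 to 1 higher and 0 to 2 lower in particle against inflamed islets, and 3 to 6 higher and 0 to 2 lower in particle against control islets. For all genes called it gave 0 to 942 in particle against inflamed and 1115 to 4545 in particle against control islets.

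Log2 fold changes near 0 turned sign. For Ptgs1 in particle against inflamed islets the value was 0.04 with limma on log2(FPKM + 0.1) and 0.32 without inflamed replicate 1, with a lowest value of -0.84 without inflamed replicate 2. For Ptger4 in the same comparison it was 0.11 with library totals, 0.15 and 0.08 without inflamed replicates 1 and 3, and 0.16 and 0.18 without particle replicates 1 and 2, with a lowest value of -0.56 without particle replicate 3. For Ptges2 in particle against control islets it was 0.25 with library totals, 0.02 in the fit of only the libraries compared, 0.04 and 0.01 without control replicates 1 and 3, and 0.19 and 0.03 without particle replicates 1 and 3, with a lowest value of -0.31 without particle replicate 2. Library totals moved the median of all genes to 0.22, from 0.05, on the log2 scale for inflamed islets and to 0.32, from 0.05, for particle islets (both against control), and to 0.13, from 0.04, for particle against inflamed islets.

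The labels state no pairing of replicate numbers. Deviations of same-numbered libraries correlated at -0.18 to 0.21, which with 3 libraries per group cannot show whether they share an origin. With the replicate block 3 of the 8 genes were higher in inflamed against control islets, Ptges2 being the call lost (adjusted p = 0.0801), and all genes called numbered 6116. Genes at a few counts, such as Ptger3, and Ptgs2 in control islets, are limited by depth.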

Other observations

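The lipoxygenase and leukotriene branch of arachidonic acid metabolism was measured with a list of 18 genes, of which 12 were tested. In inflamed against control islets 6 rose and 0 fell, with a median log2 fold change of 0.75. Over all genes tested 20.7% rose and 19% fell, with a median of 0.05. The 6 that rose were the lipoxygenase genes Alox12, Alox12e and Alox8, the receptor genes Fpr2 and Cmklr1, and Ephx1. Alox12e held 23 counts over the inflamed group and entered this test only through its higher counts in particle libraries. In the fit of only the libraries compared it did not pass the count filter. No gene of leukotriene synthesis was among them. Ephx1, an epoxide hydrolase, rose from 53.3 ± 11.5 to 136.8 ± 31.5 CPM (SD, n = 3, log2 fold change 1.36, edgeR adjusted p = 0.00125) and stood at 196 ± 8.98 CPM in particle islets, with each particle library above each inflamed library (adjusted p = 0.307 between them). Cmklr1, a receptor for chemerin and resolvin E1, rose from 1.999 ± 0.589 to 10.5 ± 4.54 CPM and stood at 3.62 ± 1.72 CPM in particle islets. Alox12, the platelet-type lipoxygenase, rose from 0.794 ± 0.110 to 4.63 ± 2.86 CPM and was at 1.75 ± 0.539 CPM in particle islets. Alox8, another lipoxygenase, rose from 3.36 ± 0.299 to 6.23 ± 1.21 CPM (adjusted p = 0.045), a call lost in 10 of 18 alternatives, among them any 1 of the control libraries left out (adjusted p up to 0.163 over its alternatives).

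Fpr2, a receptor for formyl peptides and lipoxin A4, had 0 counts in the 3 control libraries and 1.44, 5.55 and 10.05 CPM in inflamed replicates 1 to 3. The inflamed mean of 5.68 CPM was at least 140-fold higher than 3 counts over the control group. Particle libraries held Fpr2 at 2.81, 1.09 and 4.93 CPM. Alox12e, an epidermal lipoxygenase gene, also had 0 counts in control libraries. It was at 0.512, 0.275 and 0.111 CPM in inflamed and at 8.22, 1.49 and 0.567 CPM in particle replicates 1 to 3. Particle libraries thus lay above inflamed libraries without overlap, a pattern of 8.87% of all genes tested. Alox12e passed the count filter through these same particle libraries, so the pattern is a description only. Neither difference between the treated groups was called (edgeR adjusted p = 0.592 for Fpr2 and 0.198 for Alox12e). The call of Alox12e for inflamed against control (adjusted p = 0.0313) was kept in 9 of 16 alternatives. It was lost without any 1 control library or inflamed replicate 1 or 2 (adjusted p from 0.0595 to 0.0803). Limma on log2(FPKM + 1) and log2(FPKM + 0.1) did not call it either (adjusted p = 0.76 and 0.291).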
